A study of Rattus norvegicus with 36 samples.

Results

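The collagen chains were 41 of the 14217 genes with a symbol of their own on the array. They were chosen by name, as every gene whose platform symbol reads Col, a number, the letter a and a number. Of these genes, 14 had more than 1 probe set (58 probe sets in all), and the one with the highest mean log2 intensity over the 36 arrays was used for each. By the structures they build, 11 chains belong to the fibrillar collagens, 9 to the fibril-associated collagens, 5 to basement membrane type IV, 5 to type VI, 4 to the transmembrane collagens, 3 to the short-chain networks and 2 to the multiplexins. The anchoring fibril chain Col7a1 and Col26a1, which was put in no such class, complete them.

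Transcript levels were measured in primary granulosa cells, the cells that line the ovarian follicle, cultured from immature Sprague-Dawley rats 21 to 27 days old. Of the 12 groups of 3 arrays, 4 received follicle-stimulating hormone (FSH, 3 ng/ml), 4 received cAMP (1 mM) and 4 no stimulus (basal), each with 0, 1, 5 or 10 µM HPTE for 48 h. HPTE is the hydroxylated metabolite of the pesticide methoxychlor and is known to act on estrogen receptors. All 12 groups had first been held for 24 h in 5% serum and then shared a serum-free medium with 0.1 µM androstenedione (0.1 M in the sample descriptions), the substrate that aromatase turns into estradiol. The labels do not state which form of cAMP was used, nor whether arrays of 1 group stem from separate animals or from wells of a single cell pool. The p-values then measure the spread between these samples, part of which may be technical.

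Collagens are built from chains that wind around each other into a helix. Fibrillar collagens (types I, II, III, V, XI, XXIV and XXVII among those measured) pack into the fibrils of connective tissue. Fibril-associated collagens such as XII and XIV decorate those fibrils, and type IV forms the sheet-like network of basement membranes. In the ovary, granulosa cells rest on the basal lamina of the follicle, to which they contribute type IV collagen, while fibrils lie mostly in the theca and stroma outside it. The FSH receptor signals in granulosa cells mainly by making cAMP, so that added cAMP is a stimulus downstream of it. The comparisons asked how each stimulus, and HPTE on top of it, changed the transcripts of these chains.

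The deposited values were intensities, 1 per probe set and array, and all levels below are their log2. Every difference is given as log2 ± its standard error, from 3 arrays against 3, with a two-sided adjusted p from a fit with limma over 31042 probe sets, corrected by Benjamini-Hochberg within each comparison. A chain was called at an adjusted p under 0.05. A level of 1 probe set was not compared with that of another. Arrays of the same group correlated at 0.95 to 0.994. The arrays numbered 3 stood apart from numbers 1 and 2 on the second principal component, and the 3'-end Gapdh control exceeded the 5'-end one, a measure that moves with RNA integrity, by a log2 of 0.767 to 1.07 there, against 1.61 to 2.4 in numbers 1 and 2. In all 12 groups Col4a6, Col5a2, Col8a1, Col8a2, Col16a1 and Col18a1 were lower in number 3 than in the mean of numbers 1 and 2. Col5a1 was higher in number 3 in all 12 groups, and Col3a1 in all but 1. Counts are therefore also given for numbers 1 and 2 alone. The main fit held no term for array number, and counts from a fit with that term (the replicate block) are given at the end.

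At 0 µM HPTE, number 2 of the FSH arrays and number 2 of the cAMP arrays went against their labels. The aromatase gene Cyp19a1 was at 11.49, 7.48 and 11.46 in the FSH arrays labelled 1 to 3, and at 7.62, 11.01 and 6.46 in the cAMP arrays. The luteinizing hormone receptor Lhcgr was at 10.27, 5.94 and 11.50 with FSH, and at 5.66, 10.04 and 5.80 with cAMP. Each array of this pair thus lay near the other group. They were kept under their labels, and results that rest on them are also given without the pair.

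Of the 41 chains, 24 lay above the median of all probe sets in at least 3 arrays, 12 did so in all 36, and 17 did so in none. Those 12 were Col1a1, Col3a1, Col5a1, Col5a2 and Col11a1 of the fibrillar class, Col4a1, Col4a2 and Col4a5 of type IV, the fibril-associated Col14a1 and Col16a1, the type VI chain Col6a1 and the short-chain Col8a1. The 17 low chains included Col2a1, the cartilage fibril chain, Col10a1 of growth plate cartilage, the type IX chains Col9a1, Col9a2 and Col9a3, and Col17a1 of epithelial anchoring. Their group means spanned only 0.163 to 0.678 between the lowest and the highest of the 12 groups. Over the 21 comparisons made, 14 chains were called at least once and 27 never, and all 14 were among the 24 above the median in at least 3 arrays.

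FSH without HPTE lowered chains of basement membranes and of fibrils. Against basal cells, 11 of 41 chains were lower and 1 was higher, where 4.18% of all probe sets were called lower and 3.88% higher. All 5 measured type IV chains, 4 of 11 fibrillar chains (Col3a1, Col5a1, Col5a2 and Col11a1) and 2 of 9 fibril-associated chains (Col12a1 and Col14a1) fell. The chain that rose was Col24a1, a fibrillar collagen. The median difference over the 41 chains was -0.0657, and over all probe sets -0.00778. Over numbers 1 and 2 alone, 11 chains were lower and 1 higher (3.83% and 2.65% of all probe sets). Those 11 were not the same set, since Col11a1 and Col14a1 were not called there. Without the pair of arrays above 10 were lower and 1 higher (4.09% and 4.02%). A fall in such bulk samples can be fewer cells of a type or less RNA per cell, which cannot be told apart.

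cAMP without HPTE gave 8 lower chains and 1 higher, where 4.49% of all probe sets were called lower and 2.69% higher. The chains called lower were the type IV chains Col4a1, Col4a2 and Col4a5, the fibrillar Col3a1, Col5a1 and Col5a2, and the fibril-associated Col12a1 and Col14a1, and the one called higher was Col24a1. With numbers 1 and 2 alone, 10 chains were lower and 1 higher (3.6% and 2.94% of all probe sets). Without the pair 11 were lower and 1 higher (4.69% and 2.62%). The comparisons of FSH and of cAMP with basal cells share the 3 basal arrays, so their values are only set side by side.

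Col12a1, the chain of type XII collagen that binds fibrils to neighbouring matrix, had the largest difference of the 41 chains with each stimulus. Its log2 intensity was 5.97, 6.36 and 6.64 in FSH cells and 6.26, 6.48 and 5.38 in cAMP cells, against 8.32, 8.48 and 8.89 in basal cells. No stimulated array reached the lowest basal array. The difference was -2.24 ± 0.30 with FSH (4.73-fold lower, adjusted p = 6.63e-06) and -2.53 ± 0.30 with cAMP (5.76-fold lower, adjusted p = 1.17e-06). The other 2 probe sets of Col12a1 had low means over all arrays (5.34 and 5.12) and differences of -0.25 and -0.04 with FSH, neither of them called. Col14a1, whose type XIV collagen also decorates fibrils, was at 8.86, 8.73 and 9.03 in FSH cells and 8.20, 9.60 and 8.06 in cAMP cells, against 10.05, 10.14 and 10.12 in basal cells. The high cAMP value was number 2 of the pair, and no stimulated array overlapped the basal arrays. The differences were -1.23 ± 0.32 with FSH (adjusted p = 0.0117) and -1.48 ± 0.32 with cAMP (adjusted p = 0.00237), or -1.97 with cAMP without the pair. Over numbers 1 and 2 alone neither Col14a1 call was kept (adjusted p = 0.0581 with FSH and 0.0838 with cAMP).

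Type IV collagen is built mainly from the chains of Col4a1 and Col4a2, and the other chains replace them in specialised basement membranes. Col4a2 was at 9.03, 8.20 and 9.15 in FSH cells and 8.44, 9.02 and 8.19 in cAMP cells, against 10.69, 10.24 and 10.41 in basal cells. All 6 stimulated arrays were more than 1 unit below the lowest basal array. That made it 3.15-fold lower with FSH (-1.66 ± 0.21, adjusted p = 2.6e-06) and 3.73-fold lower with cAMP (-1.90 ± 0.21, adjusted p = 3.58e-07). Col4a1 was at 6.70, 6.44 and 6.59 in FSH cells and 6.28, 7.14 and 6.46 in cAMP cells, against 7.93, 7.95 and 7.47 in basal cells. The groups did not overlap, and its second probe set was called lower too, at -1.12 with FSH and -1.39 with cAMP. The differences of the probe set used were -1.20 ± 0.23 with FSH (adjusted p = 0.00053) and -1.15 ± 0.23 with cAMP (adjusted p = 0.000915).

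Col4a5, a chain of the networks of kidney and other specialised basement membranes, was at 10.70, 11.01 and 11.12 in FSH cells and 10.75, 10.87 and 11.25 in cAMP cells, against 11.68, 11.94 and 12.08 in basal cells. The groups stayed apart, and the difference was -0.96 ± 0.16 with FSH (adjusted p = 0.000184) and -0.94 ± 0.16 with cAMP (adjusted p = 0.00023). Col4a6, which pairs with Col4a5 in some epithelial basement membranes, was at 5.21, 5.91 and 4.65 with FSH, against 7.52, 7.80 and 5.78 in basal cells. The groups overlapped through number 3 of the basal arrays, which was near the highest FSH array. Its difference of -1.78 ± 0.56 passed with FSH (adjusted p = 0.0452), and that of -1.73 ± 0.56 did not pass with cAMP (adjusted p = 0.0576). Numbers 1 and 2 alone gave -2.10 with FSH (adjusted p = 0.000317) and -2.04 with cAMP (adjusted p = 0.000372). The second probe set of Col4a6 was called lower over all arrays with both stimuli. It differed by -1.595 with FSH (adjusted p = 0.000449) and -1.40 with cAMP (adjusted p = 0.00202). Col4a4, a chain known from the glomerular basement membrane, differed by -1.23 ± 0.35 with FSH (adjusted p = 0.0216) and by -1.09 ± 0.35 with cAMP, which was not called (adjusted p = 0.0542).

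**Figure D1:**
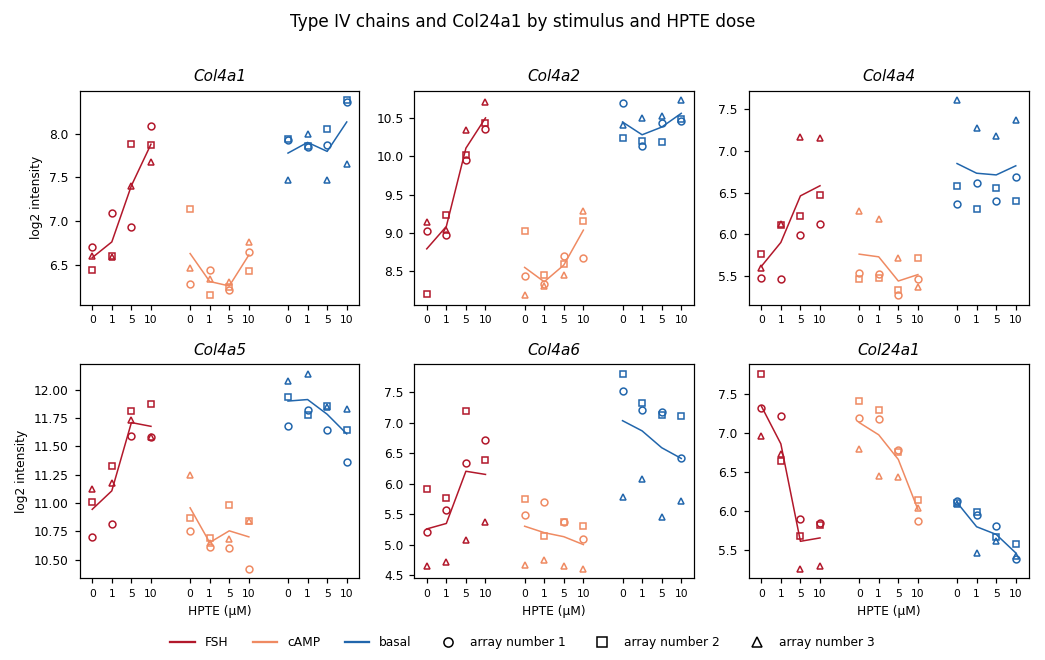
Log2 intensity of the 5 type IV chains and Col24a1 in each array (circle, number 1; square, number 2; triangle, number 3), with a line through the group means, over 0, 1, 5 and 10 µM HPTE for FSH, cAMP and basal cells. With FSH the type IV chains lie low at 0 µM and near the basal arrays at 10 µM, with cAMP they stay low, and Col24a1 is high with both stimuli at 0 µM and lower at 10 µM.

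Among the fibrillar chains, Col5a1 and Col5a2 build type V collagen, which starts fibrils and sets their width, and Col3a1 builds type III. Col5a1 was at 9.33, 9.20 and 9.36 in FSH cells and 9.30, 9.36 and 9.60 in cAMP cells, against 10.27, 10.21 and 10.52 in basal cells. The 3 groups of values were tight, and the stimulated arrays lay wholly below. The difference was -1.04 ± 0.20 with FSH (adjusted p = 0.000878) and -0.92 ± 0.20 with cAMP (adjusted p = 0.00352). Taken as the mean of its probe sets, Col5a1 differed by -0.94 with FSH (adjusted p = 0.13) and -0.91 with cAMP (adjusted p = 0.158) and was not called. Col5a2 was at 11.79, 11.70 and 11.05 in FSH cells and 11.57, 11.99 and 10.94 in cAMP cells, against 12.90, 12.91 and 12.45 in basal cells. Number 3 was lowest in each group, and no stimulated array reached the basal ones. It was 2.36-fold lower with FSH (-1.24 ± 0.32, adjusted p = 0.0124) and 2.39-fold lower with cAMP (-1.26 ± 0.32, adjusted p = 0.0122). Col3a1 was at 8.59, 8.28 and 9.61 in FSH cells and 8.52, 9.04 and 8.42 in cAMP cells, against 9.87, 9.92 and 10.20 in basal cells. Number 3 of the FSH arrays came nearest to the basal arrays without reaching them. The difference was -1.17 ± 0.31 with FSH (adjusted p = 0.014), which without the pair was -0.89 and not called (adjusted p = 0.108), and -1.34 ± 0.31 with cAMP (adjusted p = 0.00472).

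Col11a1, a chain of the thin fibrils of cartilage that is also known from other tissues, was at 11.22, 12.33 and 11.79 in FSH cells and 12.17, 11.92 and 12.66 in cAMP cells, against 12.62, 12.69 and 12.75 in basal cells. The FSH arrays were spread over more than 1 unit, all below the basal arrays, and number 3 of the cAMP arrays lay within the basal range. The difference of -0.91 ± 0.21 with FSH was called (adjusted p = 0.00425), though not with numbers 1 and 2 alone (adjusted p = 0.0731), and that of -0.44 ± 0.21 with cAMP was not (adjusted p = 0.299). Both other probe sets of Col11a1 were called lower with cAMP (-1.06, adjusted p = 0.0181, and -1.21, adjusted p = 0.0268). They were called lower with FSH too (-1.54 and -1.97), so the missing cAMP call held only for the probe set used. The type I chains, which build the commonest fibrils of connective tissue, were not called with either stimulus at 0 µM HPTE. Col1a1 differed by -0.90 ± 0.37 with FSH (adjusted p = 0.179) and -1.02 ± 0.37 with cAMP (adjusted p = 0.112), and Col1a2 by -1.32 ± 0.46 with FSH (adjusted p = 0.0866) and -1.40 ± 0.46 with cAMP (adjusted p = 0.0697). Without the pair the cAMP differences were -1.50 for Col1a1 (adjusted p = 0.00765) and -2.17 for Col1a2 (adjusted p = 0.000303), both called. Number 2 of the cAMP arrays held the highest value of its group for both genes.

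Calls at 0 µM HPTE that rested on single arrays, with the log2 difference left, were as follows for FSH. Col11a1 lost its call without FSH number 1 (-0.63 left). Col3a1 lost its call without basal number 3 or FSH number 1 or 2 (-0.89 to -1.07 left). Col4a4 lost its call without basal number 3 or FSH number 1 or 3 (-0.86 to -1.23 left). Col4a6 lost its call without basal number 1 or 2 or FSH number 1 or 3 (-1.39 to -1.75 left). Col5a2 lost its call without basal number 1 or 2 or FSH number 3 (-1.01 to -1.17 left). With cAMP, Col5a2 lost its call without basal number 1 or 2 or cAMP number 3 (-0.98 to -1.18 left). These adjusted p ran from 0.0582 to 0.253 with FSH and from 0.0566 to 0.108 with cAMP. The calls for Col12a1, Col4a1, Col4a2, Col4a5, Col5a1, Col14a1 and Col24a1 were kept without any 1 of the arrays compared, for both stimuli. The called chains had 9 other probe sets in the FSH comparison and 6 in the cAMP comparison. All of these had the same sign as the probe set used, and 5 of the 9 and 3 of the 6 were called.

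**Figure D2:**
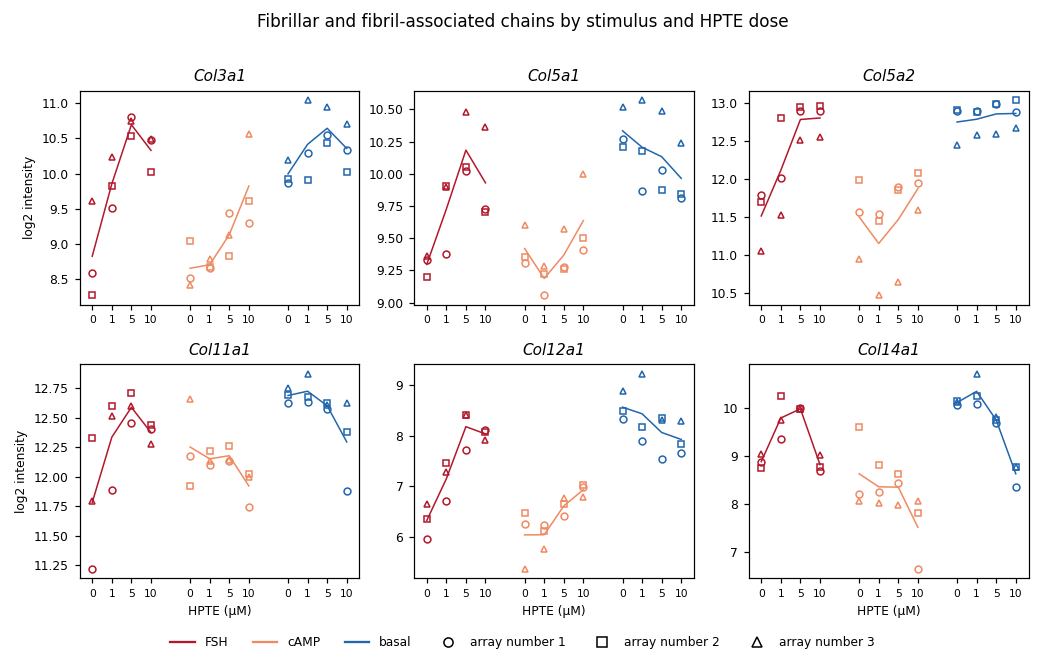
Log2 intensity of 4 fibrillar chains (Col3a1, Col5a1, Col5a2, Col11a1) and 2 fibril-associated chains (Col12a1, Col14a1) in each array, with lines through the group means, over 0, 1, 5 and 10 µM HPTE for FSH, cAMP and basal cells. At 0 µM the FSH arrays lie below all basal arrays for each of the 6 chains, and from 5 µM they lie among or near them, with Col14a1 lower at 10 than at 5 µM in FSH and in basal cells.

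Col24a1 encodes a fibrillar chain known in the mouse from developing bone and cornea. Its log2 intensity was 7.33, 7.76 and 6.96 in FSH cells and 7.20, 7.42 and 6.80 in cAMP cells, against 6.14, 6.11 and 6.09 in basal cells. All 6 stimulated arrays were above the 3 basal arrays, which were almost equal. It was 2.36-fold higher in FSH cells (1.24 ± 0.22, adjusted p = 0.000303) and 2.03-fold higher with cAMP (1.02 ± 0.22, adjusted p = 0.00253). It had a single probe set.

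The promoters of chains that moved in opposite directions were set side by side. Windows of 250 bases before to 50 after the annotated start (RefSeq, GRCr8) were at hand for 32 of the 41 chains. They were searched on both strands for the cAMP response element TGACGTCA, the short element TGACG that begins it, the CCAAT box, the GC box GGGCGG, the AP-1 site TGANTCA and the TATA box TATAAA, where the short element lies within the full one. In the sequences below, capitals mark matches to the full or short cAMP response element or to the CCAAT box, on either strand. Col24a1, which rose, is given from 250 bases before to 20 after the most upstream of its 3 annotated starts (chr2:236872333-236872602, + strand). The fibrillar chains Col5a2 (chr9:55090152-55090401, - strand) and Col11a1 (chr2:204508886-204509135, + strand) and the type IV chain Col4a5 (chrX:109907109-109907358, + strand), which fell, are given as the 250 bases before their starts. Col4a1 and Col4a2, whose genes lie head to head, are given as the 76 bases between both starts (chr16:84885521-84885596, + strand). Col5a2 and that shared stretch hold none of the marked matches. Outside the stretch, the searched windows do hold the CCAAT box, at bases -170 and 25 for Col4a1 and at base -105 for Col4a2.
Col24a1: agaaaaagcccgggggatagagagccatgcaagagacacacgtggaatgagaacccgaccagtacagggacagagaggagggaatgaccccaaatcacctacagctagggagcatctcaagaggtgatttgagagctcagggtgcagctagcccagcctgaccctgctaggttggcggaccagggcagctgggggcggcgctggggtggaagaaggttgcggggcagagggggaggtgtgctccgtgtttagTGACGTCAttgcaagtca
Col5a2: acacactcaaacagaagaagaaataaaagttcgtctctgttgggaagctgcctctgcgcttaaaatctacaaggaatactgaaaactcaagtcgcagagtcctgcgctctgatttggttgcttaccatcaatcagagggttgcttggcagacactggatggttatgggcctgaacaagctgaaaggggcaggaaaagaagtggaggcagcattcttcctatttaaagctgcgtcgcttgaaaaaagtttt
Col11a1: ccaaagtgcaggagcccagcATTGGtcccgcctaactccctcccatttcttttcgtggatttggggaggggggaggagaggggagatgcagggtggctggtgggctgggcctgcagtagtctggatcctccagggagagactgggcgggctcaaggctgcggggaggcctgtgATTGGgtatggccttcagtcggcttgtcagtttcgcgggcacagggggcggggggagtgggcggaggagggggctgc
Col4a5: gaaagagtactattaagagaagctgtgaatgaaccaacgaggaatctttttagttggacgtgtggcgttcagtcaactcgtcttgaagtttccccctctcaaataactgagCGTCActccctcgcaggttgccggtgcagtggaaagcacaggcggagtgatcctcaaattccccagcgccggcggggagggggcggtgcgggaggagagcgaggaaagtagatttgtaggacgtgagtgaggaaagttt
Col4a2 and Col4a1: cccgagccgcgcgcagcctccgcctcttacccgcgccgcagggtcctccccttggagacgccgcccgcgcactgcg
The full cAMP response element was found in 1 of the 32 chains (3.12%), Col24a1, where it starts at base 3 after the most upstream start and at base -49 of the next one. It was found in 2% of 27457 genes with a window. The short element was found in 3 chains (9.38%, against 23% of all genes), namely Col24a1, Col4a5 and Col7a1. The CCAAT box was found in 9 chains (28.1%, against 39.6%), the GC box in 18 (56.2%, against 36%), the AP-1 site in 1 (3.12%, against 8.04%) and the TATA box in 4 (12.5%, against 15.3%). GC made up 58.9% of the Col24a1 sequence shown, 44.8% of that of Col5a2 and 78.9% of the bases between Col4a1 and Col4a2. A match is a description of these letters and was not tied to any measured level.

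The linear intensities of markers of other cells that a follicle culture could hold were summed per array. The log2 of that sum is given, in which the highest markers weigh most. Over the 10 markers of pericytes and smooth muscle, cells that also make collagen, it was 8.72 to 9.28 with FSH. With cAMP it was 8.67 to 8.98, and in basal cells 10.83 to 11.77. The highest single level in this list was that of Acta2, up to 11.34. The median difference over the 10 markers was -0.27 with FSH and -0.11 with cAMP. Of these markers 3 fell with FSH and 2 with cAMP, among them Acta2, smooth muscle actin, at -4.56 ± 0.55 with FSH (adjusted p = 1.5e-06) and -4.76 ± 0.55 with cAMP (adjusted p = 7.59e-07). Rgs5, Des, Kcnj8 and Notch3, markers of pericytes and muscle, were below the array median in all 36 arrays. The 8 surface epithelium markers summed to 10.38 to 10.64 with FSH and 10.62 to 11.12 with cAMP, against 11.34 to 11.72 in basal cells, with Wt1, which granulosa cells also express, as the 1 marker that fell. Msln and Lgr5 of that list were below the median in all arrays. The 12 theca and stroma markers summed to 12.49 to 13.33 with FSH and 12.96 to 13.55 with cAMP, against 12.81 to 13.28 in basal cells, ranges that overlapped, and Tcf21, Thy1 and Gli1 of that list were below the median in all arrays. The 11 macrophage and leukocyte markers summed to 9.08 to 10.78 with FSH and 9.20 to 10.28 with cAMP, against 9.86 to 11.21 in basal cells, with Cd14 the 1 that fell. No marker of the endothelium (9 measured) or of oocytes (5 measured) was called with either stimulus. Of 11 granulosa markers, 9 were above the median in all arrays and 8 rose with each stimulus. The part of other cells in the collagen differences was not tested.

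With 5 or 10 µM HPTE in the medium, no collagen chain was called between FSH and basal cells. At 1 µM HPTE, 4 chains were lower with FSH than in basal cells and 1 was higher, where 1.64% of all probe sets were called lower and 1.39% higher. The 4 were Col12a1 (-1.29 ± 0.30), Col4a2 (-1.19 ± 0.21), Col4a1 (-1.14 ± 0.23) and Col4a5 (-0.81 ± 0.16), with adjusted p from 0.000704 to 0.0117, and Col24a1 was higher (1.06 ± 0.22, adjusted p = 0.00428). With numbers 1 and 2 alone, 2 were lower (Col4a2 and, though not called over all arrays, Col4a6) and 1 was higher. There 0.48% of all probe sets were called lower and 0.37% higher, and Col12a1, Col4a1 and Col4a5 were not called. Col12a1 lost its call without basal number 3 or FSH number 1 (-0.89 to -1.06 left). Col24a1 lost its call without basal number 3 or FSH number 1 (0.88 to 0.89 left). Col4a5 lost its call without FSH number 1 (-0.66 left). At 5 µM no chain was called by limma, where 0.00322% of all probe sets were called higher and 0% lower. None of the chains had an unadjusted p under 0.05 there, against 424 of all 31042 probe sets. At 10 µM likewise no chain was called, and 0% of probe sets were called in either direction. Nor did any chain have an unadjusted p under 0.05 there, against 497 of all 31042 probe sets. The change in the response itself was tested at 10 µM, as the interaction given after the effects of HPTE.

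With cAMP, chains were called lower at every HPTE dose. At 1 µM HPTE, 9 chains were lower and 1 higher (4.47% and 4.24% of all probe sets), at 5 µM 10 were lower and 1 higher (4.09% and 3.99%), and at 10 µM 8 were lower and none higher (3.45% and 2.73%). Over numbers 1 and 2 alone the counts were 11 and 1 (3.94% and 3.5%), 10 and 1 (3.79% and 3.06%), and 10 and 0 (3.51% and 2.49%). Those were without Col14a1 at 5 and 10 µM and without Col12a1 at 10 µM. Col8a1, a chain of the short networks under endothelium and in other matrices, was called lower with cAMP at all 3 HPTE doses. At 0 µM it differed by -1.39 ± 0.51 and was not called (adjusted p = 0.116), and without the pair it differed by -1.80 and was called (adjusted p = 0.0483). No dose of HPTE was called for it within cAMP cells. At 5 µM it was at 8.19, 8.28 and 6.55 with cAMP, against 10.33, 9.91 and 9.39 in basal cells. Number 3 was lowest in both groups, and the groups did not overlap. The difference was -2.05 ± 0.51 at 1 µM HPTE (adjusted p = 0.00816), -2.20 ± 0.51 at 5 µM (adjusted p = 0.00456) and -1.89 ± 0.51 at 10 µM (adjusted p = 0.0207). Col4a4 was called lower with cAMP at 5 µM (-1.27 ± 0.35, adjusted p = 0.0172) and 10 µM (-1.30 ± 0.35, adjusted p = 0.0178). Col1a1 was called lower at 10 µM, with 6.96, 6.91 and 6.94 in cAMP cells, against 8.87, 8.43 and 7.65 in basal cells (-1.38 ± 0.37, adjusted p = 0.0198). Its cAMP arrays were nearly equal, and the basal arrays were spread over more than 1 unit above them. The pericyte and smooth muscle markers summed to 8.75 to 9.06 in cAMP cells at 10 µM, against 10.27 to 11.07 in basal cells. Of the 10, 2 were called lower, and their median difference was -0.01.

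Several of the cAMP calls rested on single arrays. At 1 µM, Col8a1 lost its call without cAMP number 3 (-1.71 left). At 5 µM, Col4a4 lost its call without basal number 3 or cAMP number 1 or 2 (-1.04 to -1.22 left). Col5a1 lost its call without basal number 3 or cAMP number 1 or 2 (-0.59 to -0.72 left). Col5a2 lost its call without cAMP number 3 (-0.98 left). Col8a1 lost its call without cAMP number 3 (-1.64 left). At 10 µM, Col12a1 (-0.99 ± 0.30, adjusted p = 0.0446) lost its call without any 1 of the 6 arrays compared, with -0.81 left without basal number 3 and -1.13 without basal number 1. The losses of 4 further chains at 10 µM were as follows. Col14a1 lost its call without basal number 2 or 3 or cAMP number 1 (-0.69 to -1.05 left). Col1a1 lost its call without basal number 1 or 2 or cAMP number 1, 2 or 3 (-1.11 to -1.39 left). Col4a4 lost its call without basal number 3 or cAMP number 1 or 3 (-1.03 to -1.28 left). Col8a1 lost its call without basal number 1 or 2 or cAMP number 2 or 3 (-1.66 to -1.94 left). The calls for Col4a1, Col4a2 and Col4a5 were kept at each of these doses without any 1 array.

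The 11 chains lowered by FSH at 0 µM HPTE were followed across the doses, with that first comparison a description, since it chose them. Their median difference between FSH and basal cells was -1.23 at 0 µM, -0.81 at 1 µM, -0.07 at 5 µM and -0.04 at 10 µM. Of the 11, all were negative at 0 and 1 µM and 7 were at 5 and 10 µM. Their median difference between cAMP and basal cells was -1.26, -1.64, -1.40 and -0.99 at the same doses, and all 11 were negative at each dose. At each dose the FSH and cAMP comparisons share their basal arrays. The median of all probe sets stayed within 0.04 of 0 in each of these comparisons.

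**Figure D3:**
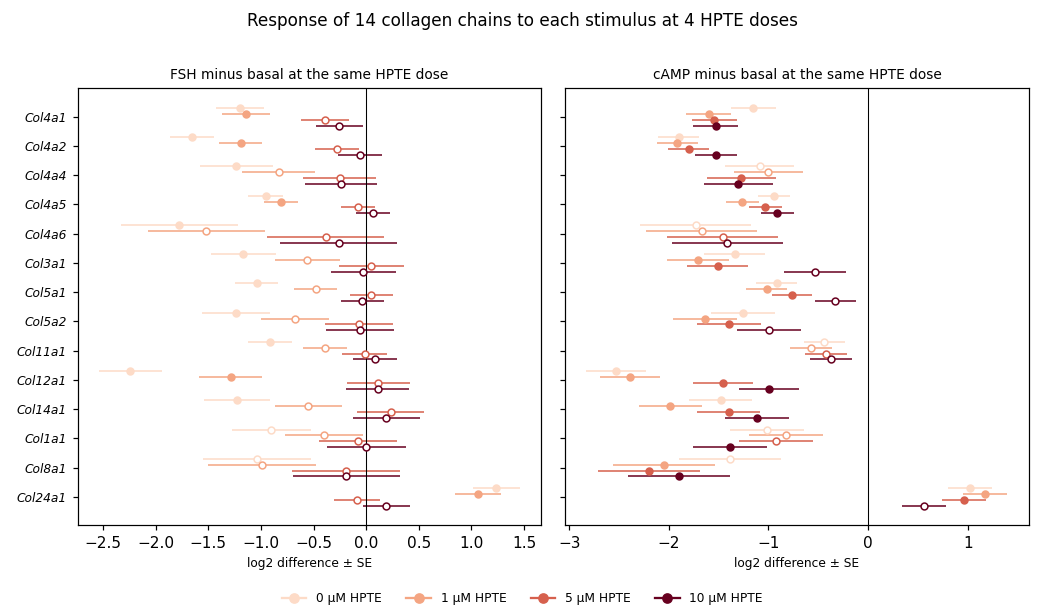
Log2 difference ± standard error between stimulated and basal cells at the same HPTE dose for the 14 chains called in any comparison, with FSH in the left panel and cAMP in the right, darker points for higher doses, and filled points where the adjusted p was under 0.05. The FSH differences lie near 0 at 5 and 10 µM, and the cAMP differences stay on their side of 0 at all 4 doses.

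Within FSH cells, HPTE raised 9 of the 11 chains that FSH had lowered at 5 µM and 6 of them at 10 µM, and it lowered Col24a1 at both doses. At 1 µM no chain was called by limma, where 0.00644% of probe sets were called higher and 0% lower. An unadjusted p under 0.05 was found there for 6 chains, against 896 of all 31042 probe sets. At 5 µM, 9 chains were higher and 1 lower than at 0 µM, where 3.45% of probe sets were called higher and 3.08% lower. At 10 µM, 6 chains were higher and 1 lower, where 4.51% were called higher and 3.95% lower. With numbers 1 and 2 alone the counts were 7 and 1 at 5 µM (2.81% and 1.74% of all probe sets), without Col4a1, Col11a1 and Col14a1. At 10 µM they were 7 and 1 (3.91% and 2.45%). Without the pair they were 9 and 2 (3.5% and 3.49%), and 7 and 2 (4.25% and 4.03%). These comparisons use the same unexposed FSH arrays as the comparison of FSH with basal cells, which adds nothing to it about the level in those 3 arrays.

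Col12a1 averaged 6.32 ± 0.34, 7.15 ± 0.40, 8.18 ± 0.40 and 8.04 ± 0.11 in FSH cells at 0, 1, 5 and 10 µM HPTE (SD, n = 3 each). The single values at 10 µM were 8.12, 8.07 and 7.92, all above the 3 unexposed arrays. It was 3.62-fold higher at 5 µM (1.86 ± 0.30, adjusted p = 0.000129) and 3.28-fold higher at 10 µM (1.71 ± 0.30, adjusted p = 0.000234). Col4a2 averaged 8.79 ± 0.51, 9.08 ± 0.14, 10.10 ± 0.21 and 10.50 ± 0.19 at the same doses. Each array at 5 µM was above each array at 0 and 1 µM, and at 10 µM all arrays were above those at 5 µM. The differences were 1.31 ± 0.21 at 5 µM (adjusted p = 9.65e-05) and 1.71 ± 0.21 at 10 µM (adjusted p = 1.4e-06). Col4a1 averaged 6.58 ± 0.13, 6.76 ± 0.29, 7.41 ± 0.48 and 7.88 ± 0.20. It was 2.46-fold higher at 10 µM (1.30 ± 0.23, adjusted p = 0.000202), with a second probe set at 1.00 (adjusted p = 0.00269).

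Col3a1 averaged 8.83 ± 0.70, 9.86 ± 0.36, 10.69 ± 0.13 and 10.33 ± 0.26 in FSH cells over the 4 doses. All exposed arrays at 5 and 10 µM were above the unexposed ones, by 1.86 ± 0.31 at 5 µM (adjusted p = 0.000165) and 1.50 ± 0.31 at 10 µM (adjusted p = 0.00141). Col5a2 was at 12.90, 12.97 and 12.55 at 10 µM, against 11.79, 11.70 and 11.05 at 0 µM, a difference of 1.29 ± 0.32 (adjusted p = 0.00863). Col4a5 was at 11.58, 11.87 and 11.58 at 10 µM, against 10.70, 11.01 and 11.12 at 0 µM, a difference of 0.73 ± 0.16 (adjusted p = 0.00338). Neither pair of groups overlapped. Col5a1, Col11a1 and Col14a1 were called higher at 5 µM (0.89 ± 0.20, 0.80 ± 0.21 and 1.10 ± 0.32) and not at 10 µM (0.63 ± 0.20, 0.59 ± 0.21 and -0.06 ± 0.32, with adjusted p of 0.0529, 0.0829 and 0.983). Both other probe sets of Col11a1 were called higher at 10 µM (1.08, adjusted p = 0.0144, and 1.35, adjusted p = 0.0104). The other probe sets of Col5a1 (0.78) and Col14a1 (-0.03) were not called there. Col14a1 averaged 9.97 ± 0.01 at 5 µM and 8.81 ± 0.18 at 10 µM, where 10 µM was close to its unexposed level.

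Col24a1 averaged 7.35 ± 0.40, 6.86 ± 0.31, 5.62 ± 0.32 and 5.66 ± 0.31 in FSH cells over the 4 doses. The arrays at 5 and 10 µM were all more than 1 unit below the lowest unexposed array. It was 3.33-fold lower at 5 µM (-1.73 ± 0.22, adjusted p = 5.83e-06) and 3.23-fold lower at 10 µM (-1.69 ± 0.22, adjusted p = 4.44e-06). Without the pair the differences at 10 µM were -1.48 for Col24a1, 1.73 for Col12a1, 1.41 for Col4a2, 1.23 for Col4a1 and 1.23 for Col3a1, and all 5 were called.

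Calls in FSH cells at 10 µM rested on a single array for 1 chain, since Col5a2 lost its call without FSH number 3 at 0 µM (1.06 left). At 5 µM they did so for 5 chains. Col11a1 lost its call without FSH number 1 at 0 µM or FSH number 2 at 5 µM (0.52 to 0.74 left). Col14a1 lost its call without FSH number 1, 2 or 3 at 0 µM or FSH number 1, 2 or 3 at 5 µM (1.03 to 1.17 left). Col4a1 lost its call without FSH number 2 or 3 at 0 µM or FSH number 2 or 3 at 5 µM (0.59 to 0.83 left). Col5a1 lost its call without FSH number 3 at 5 µM (0.74 left). Col5a2 lost its call without FSH number 3 at 0 µM or FSH number 2 at 5 µM (1.04 to 1.20 left). The pericyte and smooth muscle markers summed to 9.89 to 11.07 in FSH cells at 10 µM HPTE, against 8.72 to 9.28 at 0 µM. Acta2 of that list rose by 3.45 ± 0.55 (adjusted p = 6.45e-05). It was the 1 marker of the 10 that was called, and their median difference was 0.17. Of the other lists, 6 of 11 granulosa markers and 1 of 12 theca and stroma markers fell, 1 of 11 macrophage and leukocyte markers rose, and of 8 surface epithelium markers 1 rose and 1 fell. The part of such cells in the collagen differences was not tested.

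Within cAMP cells, no chain was called by limma at 1 µM HPTE, with 0% of probe sets called. None was called at 5 µM either, with 0.00322% of probe sets called higher and 0% lower. At 1 µM, 1 chain had an unadjusted p under 0.05, against 743 of all 31042 probe sets. At 5 µM, 7 chains had one, against 2624 probe sets. At 10 µM, 1 chain was higher and 2 were lower, where 1.2% of probe sets were called higher and 0.486% lower. Over numbers 1 and 2 alone, 0 were higher and 3 lower (0.593% and 0.47% of all probe sets). Without the pair 2 were higher and 2 lower (1.78% and 0.776%). Col1a1 was at 6.96, 6.91 and 6.94 at 10 µM, against 8.31, 9.83 and 8.46 at 0 µM. All exposed arrays were lower by more than 1 unit, and the highest unexposed array was number 2 of the pair. The difference was -1.93 ± 0.37 (3.82-fold lower, adjusted p = 0.00292), and -1.45 without the pair (adjusted p = 0.0249). The second probe set of Col1a1 had the same sign and was not called (-1.36, adjusted p = 0.12). Col24a1 was at 5.88, 6.15 and 6.05 at 10 µM, against 7.20, 7.42 and 6.80 at 0 µM. The groups did not overlap (-1.11 ± 0.22, adjusted p = 0.0042). Col3a1 was at 9.30, 9.62 and 10.56 at 10 µM, against 8.52, 9.04 and 8.42 at 0 µM. Number 3 was the highest exposed array, and the groups did not overlap (1.17 ± 0.31, adjusted p = 0.0468). Col3a1 lost its call without cAMP number 1 or 3 at 0 µM or cAMP number 2 or 3 at 10 µM (0.80 to 1.27 left). With numbers 1 and 2 alone it was 0.68 (adjusted p = 0.249).

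In basal cells, no chain was called by limma at 1 µM, with 0% of probe sets called. None was called at 5 µM either, with 0.00644% of probe sets called in each direction. At 1 µM, 0 chains had an unadjusted p under 0.05, against 159 of all 31042 probe sets. At 5 µM, 6 chains had one, against 527 probe sets. At 10 µM, 2 chains were lower and none was higher, where 0.602% of probe sets were called lower and 0.416% higher. With numbers 1 and 2 alone neither was called, where 0.271% of probe sets were called lower and 0.216% higher. At 10 µM the 12 theca and stroma markers summed to 12.44 to 12.76, against 12.81 to 13.28 at 0 µM, the 9 endothelium markers to 9.49 to 9.94, against 9.21 to 9.40, and the 11 granulosa markers to 14.49 to 14.57, against 14.62 to 14.73. These ranges did not overlap, those of the other 4 marker lists did, and no marker of the 7 lists was called. Of the endothelium list, Tie1, Vwf, Emcn, Esam, Cldn5 and Flt1 were below the array median in all 36 arrays. The part of such cells in the fall of the 2 chains was not tested. Col14a1 was at 8.34, 8.76 and 8.76 at 10 µM, against 10.05, 10.14 and 10.12 at 0 µM. The exposed arrays were all more than 1 unit below the tight unexposed group (-1.48 ± 0.32, 2.79-fold lower, adjusted p = 0.014). Col1a1 was at 8.87, 8.43 and 7.65 at 10 µM, against 10.43, 9.49 and 9.73 at 0 µM. Its exposed arrays were spread over more than 1 unit and did not reach the unexposed arrays (-1.57 ± 0.37, 2.96-fold lower, adjusted p = 0.0307). Col14a1 lost its call without basal number 2 or 3 at 0 µM or basal number 1 at 10 µM (-1.34 to -1.47 left). Col1a1 lost its call without basal number 1 or 3 at 0 µM or basal number 2 or 3 at 10 µM (-1.23 to -1.64 left). The second probe set of Col1a1 had a difference of the same sign that was not called (-1.02, adjusted p = 0.516), and the mean of both was -1.30 and not called (adjusted p = 0.0901). That of Col14a1 also had the same sign and was not called (-1.05, adjusted p = 0.15). In FSH cells Col1a1 differed by -0.66 ± 0.37 at 10 µM and was not called (adjusted p = 0.411).

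**Figure D4:**
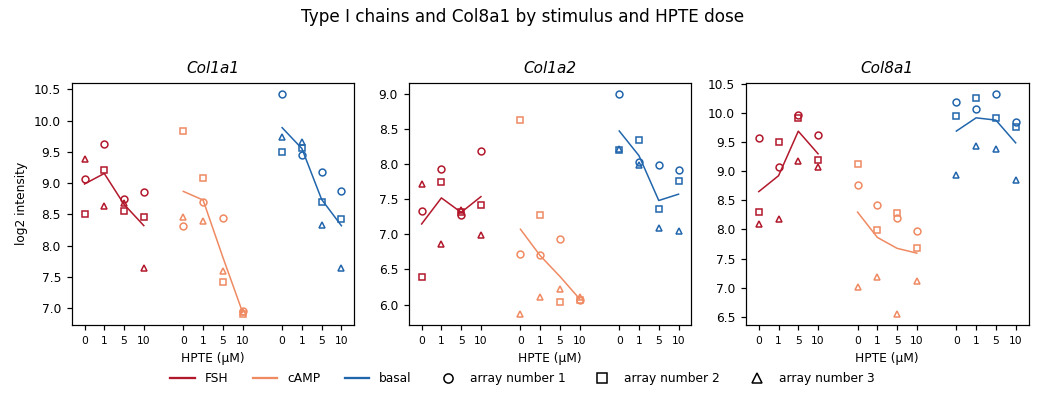
Log2 intensity of the type I chains Col1a1 and Col1a2 and of the short-chain Col8a1 in each array, with lines through the group means, over 0, 1, 5 and 10 µM HPTE for FSH, cAMP and basal cells. Col1a1 is lower at 10 than at 0 µM in the cAMP and basal arrays, and at 10 µM its FSH arrays lie level with the basal ones. Number 2 of the cAMP arrays at 0 µM is the highest of its group for each of the 3 chains.

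The effect of 10 µM HPTE was then compared between stimuli. An interaction is the effect of HPTE in stimulated cells minus its effect in basal cells. In the fit without array number as a term, 3 chains had a positive interaction with FSH and none a negative one, where 1.38% of probe sets were called positive and 0.796% negative. Over numbers 1 and 2 alone 4 were positive (Col12a1, Col4a2, Col3a1 and Col4a6, but not Col4a5), where 0.393% of probe sets were positive and 0.103% negative. Without the pair 4 were positive (Col12a1, Col4a2, Col4a5 and Col11a1), where 1.82% were positive and 1.59% negative. The interaction was 2.35 ± 0.42 for Col12a1 (adjusted p = 0.00205), 1.60 ± 0.29 for Col4a2 (adjusted p = 0.00226) and 1.02 ± 0.23 for Col4a5 (adjusted p = 0.0143). For Col12a1 it joins an effect of 1.71 in FSH cells and one of -0.64 ± 0.30 in basal cells that was not called (adjusted p = 0.722). Taken as the mean of its 3 probe sets, which differ, Col12a1 had an interaction of 0.74 that was not called (adjusted p = 0.0556). Col4a5 lost its call without basal number 3 at 0 µM or basal number 1 at 10 µM or FSH number 1 at 0 µM or FSH number 2 at 10 µM (0.90 to 0.93 left). The interaction of Col24a1 was -1.04 ± 0.31 and not called (adjusted p = 0.0829), as was that of Col5a1 (1.00 ± 0.29, adjusted p = 0.0672). With cAMP no chain was called by limma, where 0.11% of probe sets were called positive and 0.0193% negative. An unadjusted p under 0.05 was found for 1 chain, against 1162 of all 31042 probe sets. That chain was Col12a1, at 1.53 ± 0.42 (adjusted p = 0.35).

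**Figure D5:**
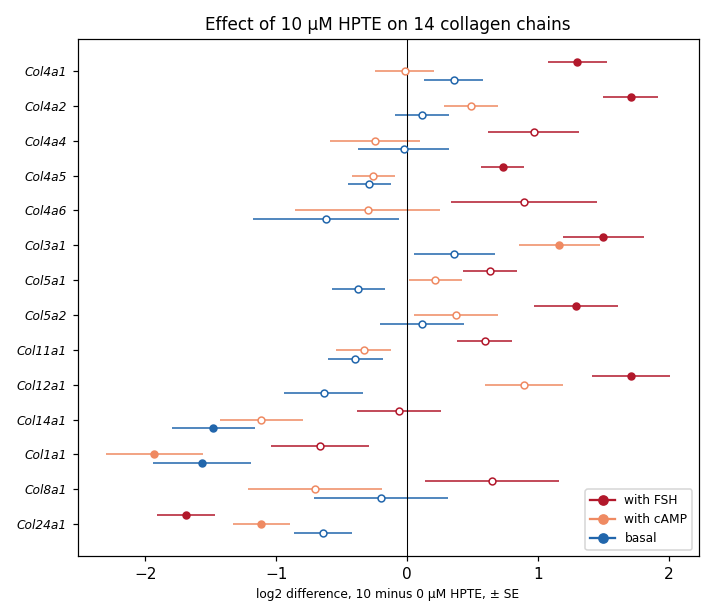
Log2 difference ± standard error between 10 and 0 µM HPTE within FSH, cAMP and basal cells for the 14 chains called in any comparison, with filled points where the adjusted p was under 0.05. The FSH points of Col12a1, Col4a1, Col4a2, Col4a5, Col3a1 and Col5a2 lie above 0, those of Col24a1 lie below 0 for each stimulus, and Col1a1 lies lowest in cAMP and basal cells.

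The stimuli were also set directly against each other. At 0 µM HPTE no chain was called between FSH and cAMP cells by limma, and 0% of probe sets were called in either direction. Of the chains, 3 had an unadjusted p under 0.05, against 1002 of all 31042 probe sets. Without the pair, 2 chains were called, Col4a2 at 0.77 (adjusted p = 0.025) and Col11a1 at -0.91 (adjusted p = 0.0175). There 1.44% of probe sets were called higher and 0.751% lower. At 10 µM HPTE, 6 chains were higher in FSH cells than in cAMP cells and none lower, where 2.8% of probe sets were called higher and 1.96% lower. With numbers 1 and 2 alone 9 were higher (2.44% of probe sets higher and 1.38% lower), and without the pair 8 (3.12% and 2.42%). The 6 were Col4a2 (1.47 ± 0.21), Col4a1 (1.27 ± 0.23), Col4a5 (0.98 ± 0.16), Col14a1 (1.31 ± 0.32), Col1a1 (1.39 ± 0.37) and Col12a1 (1.10 ± 0.30), with adjusted p from 2.2e-05 to 0.0265. Col12a1 lost its call without any 1 of the 6 arrays, with differences left from 1.03 without cAMP number 3 to 1.16 without FSH number 3. Col14a1 lost its call without FSH number 3 at 10 µM or cAMP number 1 at 10 µM (0.88 to 1.21 left). Col1a1 lost its call without FSH number 1 or 2 at 10 µM or cAMP number 1, 2 or 3 at 10 µM (1.12 to 1.40 left). The 3 type IV calls were kept without any 1 array.

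Of the 27 chains that were never called, 17 were the low ones above, and the other 10 were Col1a2, Col6a1, Col6a2, Col6a3, Col8a2, Col15a1, Col16a1, Col18a1, Col25a1 and Col27a1. The type VI chains, which form beaded filaments around cells, were thus not called in any of the 21 comparisons. Col6a1 ranged over its 36 arrays from 6.32 to 7.49, with a median of 6.99, and its group means spanned 0.640. Col16a1, a fibril-associated chain, and Col18a1, whose released end is endostatin, had group means that spanned 1.02 and 1.15, with standard deviations within groups of 0.456 and 0.556. In FSH cells Col18a1 differed by -1.10 ± 0.43 between 10 and 0 µM HPTE and was not called (adjusted p = 0.132). Without the pair it differed by -1.56 and was called (adjusted p = 0.0254). Col1a2, whose chain joins that of Col1a1 in type I collagen, had group means that spanned 2.39 and a standard deviation within groups of 0.603.

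Genes that fold, process, cut and bind collagen were counted from lists chosen with earlier results of these data known. The counts stand against 4.18% of all probe sets called lower and 3.88% higher with FSH, and 4.49% lower and 2.69% higher with cAMP. In lists of this size those shares come to about 1 gene or fewer in each direction, and nothing is read from counts of 1. Of 20 measured genes of collagen modification and folding, 2 were lower and 1 higher with FSH, and 4 lower and 1 higher with cAMP. P4ha3, a subunit of the prolyl hydroxylase that makes the helix stable, differed by -2.22 ± 0.57 with FSH (adjusted p = 0.0104) and -2.50 ± 0.57 with cAMP (adjusted p = 0.00385). P4ha1, the main subunit of that kind, was called with cAMP (-1.07 ± 0.31, adjusted p = 0.027) and not with FSH (-0.87 ± 0.31, adjusted p = 0.0868). The collagen chaperone Serpinh1 was not called (-0.67 ± 0.59 with FSH, adjusted p = 0.773). Of 6 measured genes of processing and crosslinking, 1 was lower with each stimulus. With FSH it was Lox, the lysyl oxidase that crosslinks fibrils (-2.03 ± 0.42, adjusted p = 0.00134), and with cAMP Pcolce, an enhancer of procollagen cleavage (-0.77 ± 0.21, adjusted p = 0.0227). Lox differed by -1.04 ± 0.42 with cAMP and was not called (adjusted p = 0.17).

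Of 16 measured genes of collagen breakdown and uptake, 1 was lower and 2 higher with FSH, and 1 lower and 1 higher with cAMP. The protease inhibitor Timp3 was higher (0.99 ± 0.19 with FSH and 0.76 ± 0.19 with cAMP) and Timp2 lower (-0.84 ± 0.20 and -1.02 ± 0.20). Of 6 measured collagen receptors, 2 were lower and 1 higher with each stimulus. The integrin chains Itga11 (-2.48 ± 0.33 with FSH, adjusted p = 7.18e-06) and Itgb1 (-0.89 ± 0.13, adjusted p = 1.31e-05) fell, and Adgrg1, an adhesion receptor that binds type III collagen, rose (1.39 ± 0.21, adjusted p = 3.1e-05). Of 13 measured matrix proteins that bind collagen, 5 were lower and 1 higher with FSH, and 5 lower and none higher with cAMP. They were led by fibronectin, Fn1, at -3.10 ± 0.46 with FSH (adjusted p = 2.97e-05) and -3.31 ± 0.46 with cAMP (adjusted p = 1.18e-05), followed by the proteoglycan Bgn and by Tnc.

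Of 14 measured basement membrane partners, 2 were lower and 1 higher with FSH, and 2 lower and none higher with cAMP. The nidogens Nid1 (-1.52 ± 0.24, adjusted p = 7.24e-05) and Nid2 (-1.49 ± 0.41, adjusted p = 0.0207), which link laminin to type IV collagen, were lower with FSH, and the laminin chain Lama4 was higher (1.50 ± 0.31, adjusted p = 0.00138). Of 16 measured genes of TGF-beta signalling and collagen gene regulation, 5 were lower and 1 higher with FSH, and 5 lower and 2 higher with cAMP. The ligands Tgfb3 (-2.44 ± 0.26, adjusted p = 2.28e-07) and Tgfb2 (-1.81 ± 0.30, adjusted p = 0.000101) fell with FSH, and Tgfbi, a secreted protein that binds collagens, rose (2.92 ± 0.39, adjusted p = 6.94e-06).

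With 10 µM HPTE in FSH cells, where 4.51% of all probe sets were called higher and 3.95% lower, the same lists gave 0 higher and 3 lower of 20 (modification and folding), 1 and 0 of 6 (processing and crosslinking), 1 and 1 of 16 (breakdown and uptake), 2 and 1 of 6 (receptors), 3 and 1 of 13 (binding proteins), 1 and 1 of 14 (basement membrane partners) and 3 and 1 of 16 (TGF-beta and regulation). Lox rose by 1.81 ± 0.42 (adjusted p = 0.0041), Fn1 by 3.74 ± 0.46 (adjusted p = 1.92e-06), Itga11 by 1.72 ± 0.33 (adjusted p = 0.000755), Nid1 by 1.01 ± 0.24 (adjusted p = 0.00581) and Tgfb3 by 2.42 ± 0.26 (adjusted p = 2.1e-07). Tgfbi was lower (-3.34 ± 0.39, adjusted p = 7.83e-07), as was Lama4 (-1.55 ± 0.31, adjusted p = 0.000993). In cAMP cells (1.2% of all probe sets higher and 0.486% lower) 10 µM HPTE gave calls in 1 of these 7 lists, that of TGF-beta and regulation, with 0 higher and 3 lower. Those were Tgfbi (-1.99 ± 0.39), Tgfb2 (-1.18 ± 0.30) and Ccn2 (-0.94 ± 0.16). In basal cells (0.416% higher and 0.602% lower) it gave 1 lower gene in each of 2 lists, Tmem38b (-1.18 ± 0.18), an ion channel of the endoplasmic reticulum linked to brittle bone disease, and the fibril-binding proteoglycan Fmod (-0.66 ± 0.12).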

How the data were processed

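RNA of 36 cultures (12 groups of 3) had been amplified with NuGEN kits and hybridised to Affymetrix arrays of the whole rat genome, per the labels' protocols. The deposited values are linear intensities, 1 per probe set and array, summarised by the authors with RMA, per the submitters' processing notes, and the design text names ArrayAssist. RMA brings all arrays to 1 distribution, so a shift shared by most probe sets would not show. The number of arrays limits the precision.

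Of 31099 probe sets 57 controls were left out. Among the other 31042, 20826 had 1 symbol in the platform table, 436 several and 9780 none. Probe sets with several symbols were not named. The log2 intensities were fitted with limma 3.58.1 in R 4.3.3 (12 group means over 36 arrays, lmFit and eBayes, two-sided, Benjamini-Hochberg over all probe sets in each of 21 comparisons). The fit was tested on simulated data with independent noise in each array. These held no deviations shared by array number, so that test does not cover such deviations.

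Any collagen chain could be named, and those called in at least 1 comparison were given by array. From each pathway list the 3 called genes with the largest difference, and Lox, Serpinh1 and P4ha1, could be named. Other genes named (Cyp19a1, Lhcgr and markers) serve as checks. The members, lists and the arrays set aside were chosen with earlier results of these data known. Alternatives were a replicate block, quantile normalization, a filter on low values, other choices of probe set, log2(intensity + 16), arrays numbered 1 and 2 alone, and leaving out the pair or any 1 array. The block without the pair was chosen after seeing the data.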

Additional observations from a re-analysis of the deposited data

Results flagged for a closer look

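The effect of 10 µM HPTE differed between FSH and basal cells for 3 chains, by the test of that difference in limma. It was larger with FSH by 2.35 ± 0.42 for Col12a1 (adjusted p = 0.00205), by 1.60 ± 0.29 for Col4a2 (adjusted p = 0.00226) and by 1.02 ± 0.23 for Col4a5 (adjusted p = 0.0143) on the log2 scale. In FSH cells all 3 exposed arrays were above all 3 unexposed arrays for each of these chains, by 1.71 ± 0.30, 1.71 ± 0.21 and 0.73 ± 0.16. In basal cells the effects were -0.64 ± 0.30, 0.11 ± 0.21 and -0.29 ± 0.16, and none was called.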

How the results depend on the processing

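Direction was kept by all 86 called differences of single chains under every alternative run, and none was reversed. All 86 calls were kept with the replicate block, with the filter on low values and with 1 probe set per gene in the fit. Quantile normalization ended 1 (Col12a1, cAMP against basal at 10 µM HPTE, -0.95), log2(intensity + 16) ended 1 (Col3a1, 10 against 0 µM HPTE in cAMP cells, 1.14), leaving out the pair 1, the mean of all probe sets of a gene 11 and numbers 1 and 2 alone 16. Leaving out single arrays ended 96 of 534 settings, over 32 of the 86 differences. Number by number, the arrays of different groups deviated together in 189 of 198 pairs (a correlation over 0.1, from -0.124 to 0.889). The lowest correlation was that between number 2 of FSH and number 2 of cAMP at 0 µM, the pair that went against its labels. Of 36 arrays, 35 were closest to arrays of their own number, all but number 2 of cAMP at 0 µM. The labels state no block. Arrays of 1 number thus shared deviations, which the main fit, without array number as a term, leaves in its spread. The replicate block raised the calls over all probe sets as well as those of the chains, so each count is followed by the chains called higher and lower and by the percentages of all probe sets called higher and lower. With the replicate block there were 15 (1 and 14, 6.44% and 8.73%) for cAMP against basal at 0 µM HPTE, 11 (2 and 9, 3.67% and 4.35%) for FSH at 1 µM, 13 (2 and 11, 6.09% and 6.72%) for cAMP at 10 µM, 4 (0 and 4, 1.61% and 1.8%) for 10 µM HPTE in basal cells, 16 (12 and 4, 6.4% and 7.86%) and 13 (10 and 3, 8.47% and 8.71%) for 5 and 10 µM in FSH cells, 5 (2 and 3, 3.89% and 1.95%) for 10 µM in cAMP cells, 13 (11 and 2, 6.06% and 5.03%) for FSH against cAMP at 10 µM and 11 (10 and 1, 3.84% and 2.93%) for the FSH interaction. With the replicate block and without the pair there were 16 (2 and 14, 6.88% and 10.4%) for cAMP against basal at 0 µM HPTE, 11 (2 and 9, 4.66% and 5.12%) for FSH at 1 µM, 14 (3 and 11, 6.98% and 7.48%) for cAMP at 10 µM, 6 (0 and 6, 2.1% and 2.34%) for 10 µM HPTE in basal cells, 16 (12 and 4, 6.48% and 7.47%) and 15 (10 and 5, 8.18% and 8.07%) for 5 and 10 µM in FSH cells, 7 (3 and 4, 6.19% and 3.03%) for 10 µM in cAMP cells, 15 (12 and 3, 6.81% and 6.09%) for FSH against cAMP at 10 µM and 10 (9 and 1, 4.47% and 4.16%) for the FSH interaction. That fit also gave 16 (1 and 15, 10.9% and 8.69%) for cAMP against basal at 1 µM, 2 (0 and 2, 0.0451% and 0.177%) for 5 µM HPTE in basal cells, 1 (1 and 0, 0.567% and 0.251%) for 1 µM in FSH cells, 4 (3 and 1, 5.34% and 2.56%) for FSH against cAMP at 0 µM and 2 (2 and 0, 1.32% and 0.38%) for the cAMP interaction. The chain with a negative FSH interaction in the fit with the block was Col24a1 (adjusted p = 0.00347). Over all arrays the block gave 1 chain higher and 14 lower for FSH against basal at 0 µM (8.56% and 7.5%). For cAMP against basal it gave 1 and 14 at 1 µM (9.83% and 8.07%) and 2 and 11 at 5 µM (9.11% and 7.87%). For FSH against basal it gave 0 and 0 at 5 µM (0.0161% and 0%) and at 10 µM (0.00322% and 0%). Numbers 1 and 2 alone gave 3 (1 and 2, 0.37% and 0.48%) for FSH at 1 µM and 0 (0 and 0, 0.216% and 0.271%) for 10 µM HPTE in basal cells. The mean of all probe sets, over 14217 genes, gave 1 (0 and 1, 0.654% and 0.935%) for 10 µM HPTE in basal cells and 5 (5 and 0, 1.91% and 1.15%) for the FSH interaction, and leaving out the pair gave 2 (1 and 1, 1.44% and 0.751%) for FSH against cAMP at 0 µM. Leaving out 1 array gave 2 to 5 for FSH against basal at 1 µM (3 without basal number 3, 2 without FSH number 1), 4 to 6 for cAMP at 10 µM (4 without basal number 2 or cAMP number 1 or 3), 0 to 1 for 10 µM HPTE in basal cells (0 without number 3 at 0 µM), 6 to 10 for 5 µM HPTE in FSH cells (6 without number 2 at 5 µM), 3 to 4 for FSH against cAMP at 10 µM (3 without cAMP number 1) and 2 to 5 for the FSH interaction (5 without basal number 3 at 10 µM). For the counts without 1 array the shares over all probe sets are not listed. The cause of the changes under these alternatives was not tested.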
